A study of Homo sapiens with 8 samples.

Results

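The 38 genes described here encode the machinery that detects damaged DNA, signals its presence and repairs it. They were chosen by name as known checkpoint kinases, break sensors, homologous recombination, Fanconi, end joining and mismatch repair genes, and each was matched by its symbol to 1 row of a table of 27945 genes. The choice was made with earlier results of these data known. Of the 38, 36 passed the filter on low counts and were tested, as were 12844 genes in all. MDC1 and XRCC2 did not pass. The measurement was fastGRO-seq of nascent RNA, in which polymerases of isolated nuclei extend the RNA they are already making and the labeled RNA is captured and sequenced, so that the counts report ongoing transcription over whole genes, introns included.

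The cells were IMR90, primary human lung fibroblasts, with an inducible fusion of the estrogen receptor and oncogenic H-RAS (ER:RAS). The tamoxifen derivative 4-OHT activates the fusion and drives the cells into oncogene-induced senescence. There were 4 groups with 2 libraries each: control cells, labeled WT and without a named shRNA, and senescent cells with a control hairpin (shControl), with shMETTL3 or with shMETTL14. The labels give neither the dose of 4-OHT nor the day of harvest for these libraries. The study's general methods give 100 nM and harvest on day 6. METTL3 and METTL14 form the heterodimer that writes N6-methyladenosine on RNA. Since the labels name no hairpin for the control group, senescence and lentiviral infection cannot be told apart when senescent shControl cells are compared with it. The labels name 1 hairpin per target and do not say which libraries came from separate cultures, although the study calls its fastGRO-seq experiments biologically independent. P-values measure the spread between these libraries only.

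In a cell, a double-strand break is recognized by the MRE11-RAD50-NBN complex, which recruits the kinase ATM, and resected single-stranded DNA recruits ATR. The kinases CHEK1 and CHEK2 pass the signal on, while MDC1, RNF8, RNF168 and TP53BP1 build the chromatin platform around the break. Homologous recombination (BRCA1, BARD1, PALB2, BRCA2, RAD51B and others) copies a sister chromatid and so works in S and G2 phase, the Fanconi proteins unhook DNA crosslinks during replication, and end joining (the Ku proteins, PRKDC, XRCC4 and LIG4) religates ends at any time in the cell cycle. Senescent cells have left the cell cycle for good and are known for a lasting DNA damage response.

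Library totals ran from 14897360 to 20306299 counts, of which 86.2% to 92.5% lay in 21 ribosomal RNA rows, and the remaining 1513930 to 2048475 counts set the depth for all other genes. The ribosomal share differed between groups without overlap, being lowest for shMETTL3 (86.2% and 88.4%), then 89.9% in each control library, 90.4% and 91.3% for shMETTL14, and highest for shControl (92.1% and 92.5%). The scaling factors moved with it, from 0.747 and 0.806 with shControl to 1.11 and 1.27 with shMETTL3, and the part of library composition in the changes cannot be told apart from the groups. The 38 genes held 3296 to 5520 counts per library. Counts are printed raw, in the order of replicates 1 and 2, and groups were compared after scaling to effective library sizes ("normalized counts") by edgeR's quasi-likelihood test over the 12844 genes, with a call at an adjusted p below 0.05. The biological coefficient of variation was 10.6%. No use was made here of the Drosophila spike-in, and each change is therefore relative to the other genes of its library. The fibroblast identity of the cells was checked on 10 marker genes, and each of them had counts in every library, whereas 5 epithelial markers summed to 0 to 3 counts and 4 endothelial markers to 3 to 10. In bulk nuclei, fewer cells transcribing a gene and less transcription per cell cannot be told apart. As a check of the labels, METTL3 read 80 and 78 counts in control, against 77 and 47 for shControl and 16 and 19 for shMETTL3, a log2 change of -2.04 ± 0.31 (SE, n = 2 and 2 libraries, edgeR adjusted p = 1.79e-05). METTL14 read 60 and 55 counts in control, against 24 and 28 for shControl and 18 and 14 for shMETTL14, where the change of -0.86 ± 0.34 did not pass the test (edgeR adjusted p = 0.0763). Nascent counts do not measure the protein left after knockdown, for which the study showed a western blot.

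More members were lower than higher in senescence. Against control cells, senescent shControl cells had 4 members higher (11.1% of those tested), where 13.3% of all genes tested were higher, and 12 members lower (33.3%), where again 13.3% of all genes tested were lower. For each of these 16 genes the normalized counts of the 2 groups did not overlap, which selection by the test makes likely, so it adds no support. The median log2 change was -0.38 over the 36 members and -0.03 over all genes tested. The members' median was -0.25 without control replicate 2, when 37 members were tested, and -0.52 without control replicate 1. The 4 higher members were 3 genes that sense or signal breaks (ATM, ATR, NBN) and the end joining ligase gene LIG4. Of the 12 lower members, 5 belonged to homologous recombination and 5 to the Fanconi group, and the other two were BLM and POLQ.

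**Figure D1:**
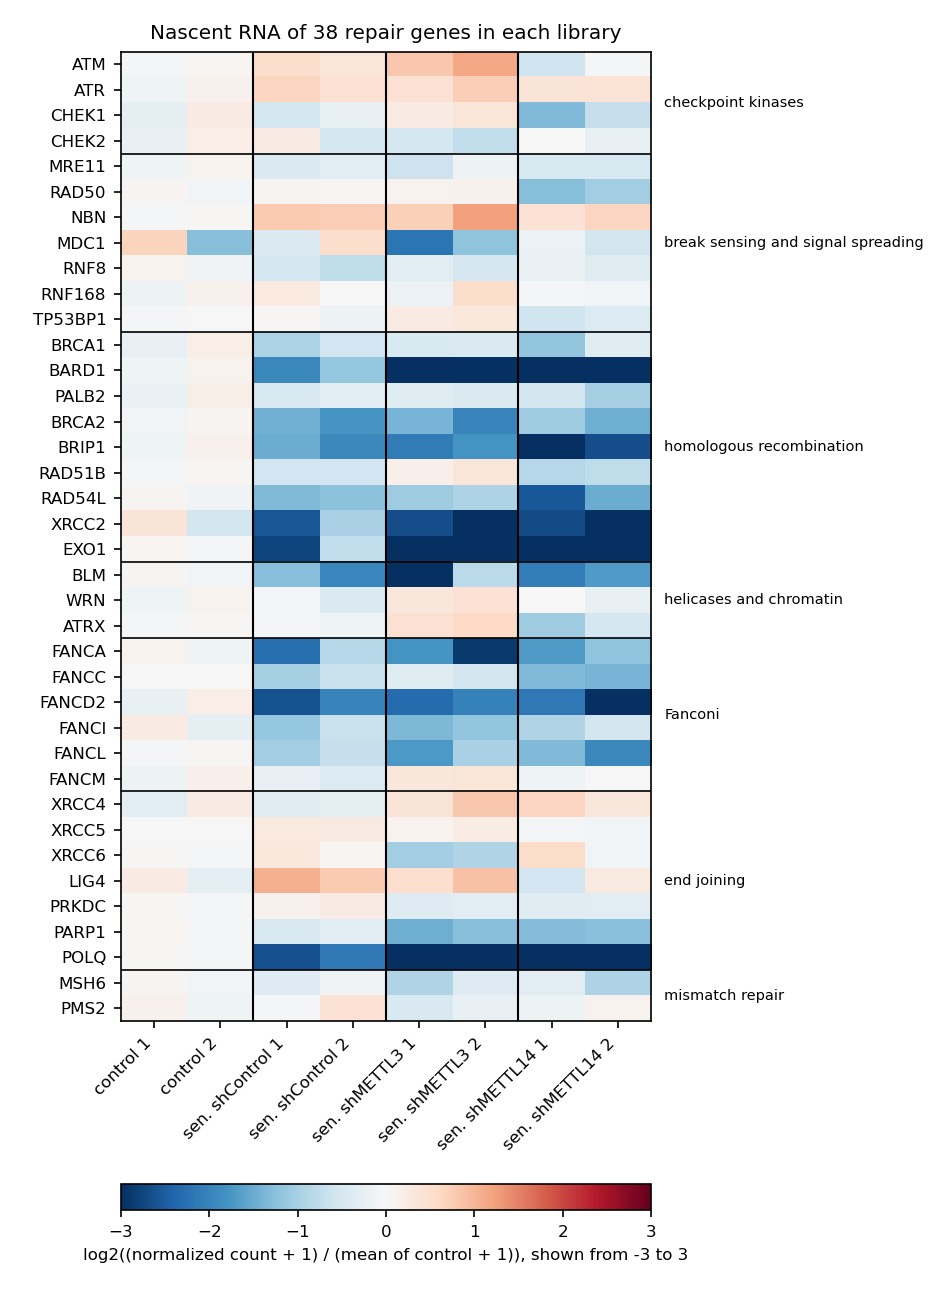
Nascent RNA of the 38 members (rows, grouped by role) in each of the 8 libraries (columns), as log2 of the normalized count plus 1 over the mean of the 2 control libraries plus 1, with colors limited to -3 and 3. Homologous recombination and Fanconi rows are mostly blue in the 6 senescent libraries, NBN and ATR rows are red there, and MDC1, with 0 to 7 counts, varies between replicates of control cells.

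Among the checkpoint kinases, ATM (hg19 chr11:108093559-108239826, plus strand), which responds to double-strand breaks, had 295 and 327 counts in control cells, 332 and 317 counts in shControl cells, 469 and 647 in shMETTL3 cells, and 180 and 250 in shMETTL14 cells. ATR, its counterpart at stalled replication forks, had 150 and 184, 194 and 180, 197 and 260, and 193 and 186 counts in the same group order, which holds for all series of 4 pairs given for the genes that follow. Control and shControl libraries did not overlap in normalized counts for either kinase. In senescence ATM was higher by 0.45 ± 0.16 on the log2 scale (edgeR adjusted p = 0.0406), although it was at -0.05 when library size alone was used for scaling, where the median of all genes was -0.53, and ATR was higher by 0.55 ± 0.16 (edgeR adjusted p = 0.0107). Their effector kinases did not pass the test, with CHEK1 at -0.38 ± 0.31 and CHEK2 at -0.10 ± 0.41.

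Among the genes that sense breaks and spread the signal, NBN, the subunit that brings ATM to the MRE11 complex, had 85 and 90, 113 and 116, 124 and 191, and 105 and 115 counts. Every senescent library was above both control libraries after scaling, and the senescent shControl value was 0.77 ± 0.20 higher on the log2 scale (edgeR adjusted p = 0.00369). The partner subunits did not pass the test, with values of -0.38 for MRE11 and 0.07 for RAD50. RNF8, the ubiquitin ligase that marks histones beside a break, was at -0.66 ± 0.27 (edgeR adjusted p = 0.0739), with control and shControl libraries apart. RNF168, which extends that mark, and TP53BP1, which reads it, were at 0.15 and -0.05. MDC1, the scaffold that reads phosphorylated H2AX, had 0 to 7 counts per library and its row stands for 8 copies on alternative haplotypes of the assembly, so nothing is drawn from it.

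Of the 8 homologous recombination genes tested, 5 were lower, and the 3 others (BRCA1, PALB2, EXO1) did not pass the test. BRIP1, the helicase that partners BRCA1, had 94 and 115, 27 and 21, 20 and 27, and 10 and 13 counts (control, shControl, shMETTL3, shMETTL14). BRCA2, the breast cancer susceptibility gene whose product acts in strand invasion, had 39 and 45, 11 and 9, 13 and 9, and 17 and 12 counts. Both control libraries were above all 6 senescent libraries for both genes, with log2 changes in senescence of -1.73 ± 0.27 for BRIP1 (edgeR adjusted p = 1.80e-05) and -1.67 ± 0.40 for BRCA2 (edgeR adjusted p = 0.00204).

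BARD1, the obligate partner of BRCA1, had 50 and 60, 10 and 19, 5 and 0, and 3 and 4 counts, and fell by 1.53 ± 0.41 in senescence on the log2 scale (edgeR adjusted p = 0.00583). RAD54L, a translocase that helps strand exchange, was counted at 27 and 24, 7 and 8, 10 and 12, and 3 and 7, a log2 change of -1.37 ± 0.48 (edgeR adjusted p = 0.0355). RAD51B, at 863 kb the longest gene of the set, had 433 and 481, 229 and 243, 433 and 548, and 222 and 225 counts. Its fall of 0.57 ± 0.14 was the smallest among the called genes of this role but rested on the most counts (edgeR adjusted p = 0.00282). BRCA1 itself, with 27 and 38 counts in control and 12 and 17 with shControl, was at -0.78 ± 0.39 (edgeR adjusted p = 0.148), and its binding partner PALB2 was at -0.43 ± 0.31. EXO1, the nuclease that resects ends, had 16 and 15, 1 and 7, 0 and 0, and 0 and 0 counts, at -1.55 ± 0.69 in senescence (edgeR adjusted p = 0.100). XRCC2, also of this role, had 18 and 9, 1 and 5, 1 and 0, and 1 and 0 counts, too few to be tested. Both EXO1 and XRCC2 were above all senescent libraries in the control group.

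Of the 6 Fanconi genes, 5 were lower in senescence. FANCD2 (hg19 chr3:10068071-10143621, plus strand), which is ubiquitinated at a crosslink and marks it for repair, had 33 and 45, 4 and 7, 6 and 8, and 7 and 2 counts (control, shControl, shMETTL3, shMETTL14). Its log2 change of -2.42 ± 0.50 corresponds to a level 5.35-fold lower (edgeR adjusted p = 0.000485), and every senescent library was below both control libraries. FANCI, its partner in the clamp, had 86 and 60, 24 and 36, 24 and 29, and 34 and 41 counts and changed by -0.90 ± 0.28. FANCL, the ubiquitin ligase that modifies the clamp, had 95 and 103, 35 and 48, 25 and 46, and 34 and 21 counts and changed by -0.87 ± 0.26. FANCA and FANCC belong to the core complex around FANCL. FANCA had 94 and 81, 13 and 38, 21 and 10, and 23 and 31 counts (-1.40 ± 0.34), with 15.4 and 42.3 normalized counts in the shControl libraries. FANCC had 134 and 133, 49 and 66, 88 and 84, and 46 and 42 counts (-0.83 ± 0.20). Adjusted p-values by edgeR were 0.00236 for FANCA, 0.00219 for FANCC, 0.0181 for FANCI and 0.0119 for FANCL. The anchor of the complex on DNA, FANCM, was at -0.34 ± 0.32 and did not pass the test.

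Outside these roles the lower genes were BLM and POLQ. BLM, the helicase mutated in Bloom syndrome, had 19 and 17, 5 and 3, 1 and 9, and 3 and 4 counts (-1.76 ± 0.65, edgeR adjusted p = 0.0470). WRN, the related Werner helicase, and ATRX, a chromatin remodeler of repeats and telomeres, were at -0.23 and -0.08 and did not pass. POLQ (hg19 chr3:121150273-121264853, minus strand), the polymerase of microhomology-mediated end joining, had 66 and 64, 7 and 11, 4 and 4, and 2 and 4 counts. In senescence it was 5.48-fold lower (log2 change -2.46 ± 0.38, edgeR adjusted p = 1.24e-05), the largest change of any member in this comparison. Classical end joining genes showed no such fall. LIG4, the ligase that seals the ends, had 35 and 24, 47 and 41, 36 and 51, and 17 and 30 counts and was higher by 0.96 ± 0.32 (edgeR adjusted p = 0.0251). XRCC4, XRCC5, XRCC6 and PRKDC lay between -0.31 and 0.28 on the log2 scale. PARP1, also listed under end joining here, was at -0.39, and the mismatch repair genes MSH6 and PMS2 were at -0.24 and 0.24. None of these genes passed the test.

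**Figure D2:**
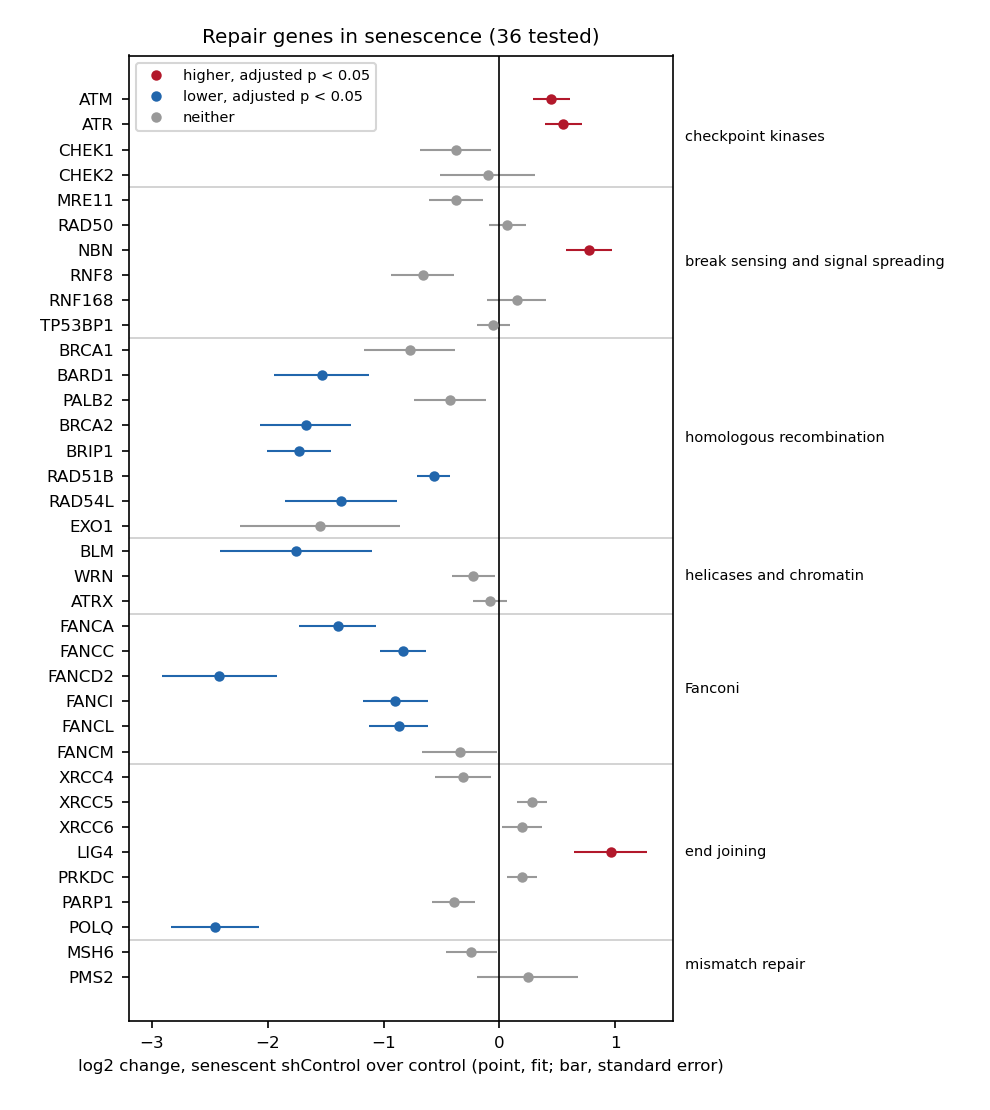
Log2 change of the 36 tested members in senescent shControl over control cells, grouped by role, with the fitted value as a point and its standard error as a bar, 2 libraries per group. Red points (ATM, ATR, NBN, LIG4) were higher and blue points were lower at an adjusted p below 0.05. The blue points lie mainly in the homologous recombination and Fanconi blocks.

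The senescence counts depended on single libraries and on scaling. Without senescent shControl replicate 1, 5 members were lower and 1 was higher, while of all 13640 genes then tested 5.59% were lower and 7.82% higher, and the Fanconi group kept 1 of its 5 calls: FANCA moved to -0.85, FANCC to -0.66, FANCI to -0.67 and FANCL to -0.69, with adjusted p between 0.0840 and 0.237. Without control replicate 2, BARD1 moved to -1.41, RAD51B to -0.50, RAD54L to -1.46 and FANCL to -0.82, and each lost its call. With any of the 4 compared libraries left out, fewer of all genes were called as well. FANCI was at -0.60 without control replicate 1 and lost its call. ATM lost its call whichever of the 4 libraries compared was left out (0.38 to 0.54). ATR lost its call without control replicate 1 (0.43) or senescent shControl replicate 1 (0.46), BARD1 also without the latter (-1.18), and LIG4 without control replicate 2 (0.71) or senescent shControl replicate 1 (0.82) or 2 (1.11). BLM and RAD54L lost theirs without any of these 4 libraries or either shMETTL14 library (BLM -2.19 to -1.39, RAD54L -1.46 to -1.26). FANCA moved to -2.30 without senescent shControl replicate 2. BRCA2, BRIP1, FANCD2 and POLQ kept their calls in every alternative that gave them a value. With library size alone as the scaling the median of all genes was -0.53 in place of -0.03 on the log2 scale, and the split became 0 higher and 25 lower, where 5.85% of all genes tested were higher and 39% lower. DESeq2 gave 1 member higher and 8 lower, where 9.58% of all genes tested were higher and 7.07% lower.

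Proliferation markers moved with the lower genes. Over 25 genes of DNA replication and mitosis, 14 of 24 tested were lower in senescence. Their summed normalized count was 1459 and 1404 in control cells and, for shControl, shMETTL3 and shMETTL14 in turn, 398 and 609, 279 and 263, and 249 and 260. The part of proliferation in the members' falls was not tested. Fibroblast markers moved as well, with 7 of 10 lower and 1 higher. The immune marker list summed to 15.1 and 17.4 normalized counts in control and 53.4 to 74.5 with shControl, nearly all from CD68, while PTPRC had 0 to 4 counts and CD3E and MS4A1 had 0 in every library.

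**Figure D3:**
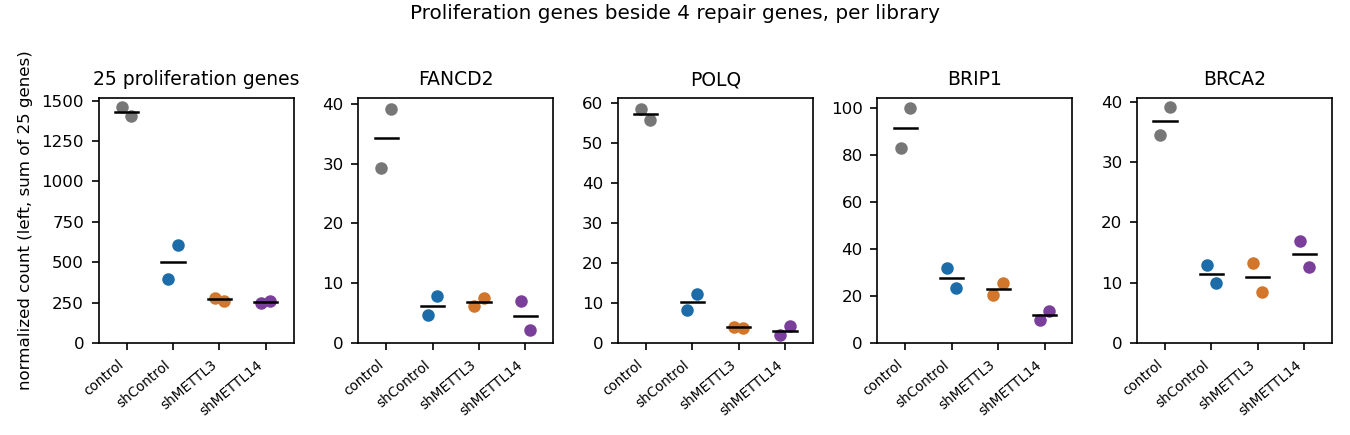
Normalized counts per library for the sum of 25 proliferation genes (left) and for the 4 members that kept their senescence call in every alternative (FANCD2, POLQ, BRIP1, BRCA2). Points are libraries, lines are means of 2, and the shRNA groups are senescent. In each panel both control libraries lie above all 6 senescent libraries.

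Promoter sequence was available for 32 of the 38 members (RefSeq, GRCh38.p14, windows of 300 bases around a start). NBN, WRN, ATRX, FANCI, XRCC5 and PRKDC had no entry. The 7 letters TTCCCGC, the core of an E2F-type site, were searched on both strands, a motif chosen with the senescence changes known. E2F factors are background knowledge as drivers of S-phase genes. The letters stood in at least 1 promoter of 12 of the 32 members (37.5%), against 7.82% of all 27305 genes with a promoter and 12.3% of the tested genes with one. By the senescence call, they stood in 8 of 11 lower members, in 0 of 3 higher members and in 3 of 16 members that did not pass. With 3 further spellings, TTGGCGC or TTCGCGC or TTGCCGC, the share was 53.1% of members, 15.3% of all genes and 24.5% of the tested genes, with 9 of 11 lower members and 6 of 16 members that did not pass. The lines that follow give the letters in stretches of 60 bases of GRCh38.p14, on the strand of the gene and with the match in capitals (GCGGGAA is the reverse complement), first for 4 lower genes and then for BRCA1 and PARP1, which hold the letters and did not pass the test.
FANCD2, chr3:10026409-10026468, plus strand: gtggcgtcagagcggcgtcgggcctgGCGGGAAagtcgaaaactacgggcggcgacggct
POLQ, chr3:121545941-121546000, minus strand: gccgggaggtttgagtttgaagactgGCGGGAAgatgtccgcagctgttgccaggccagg
BRIP1, chr17:61863493-61863552, minus strand: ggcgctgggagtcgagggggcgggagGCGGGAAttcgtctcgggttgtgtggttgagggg
BARD1, chr2:214809646-214809705, minus strand: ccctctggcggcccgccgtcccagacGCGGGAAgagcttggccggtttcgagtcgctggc
BRCA1, chr17:43125378-43125437, minus strand: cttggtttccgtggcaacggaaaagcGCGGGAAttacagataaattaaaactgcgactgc
PARP1, chr1:226408078-226408137, minus strand: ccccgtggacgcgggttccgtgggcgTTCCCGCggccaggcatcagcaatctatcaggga
The match in PARP1 is on the opposite strand to the other 5, and BRCA2, RAD51B and FANCA, which were lower too, have no TTCCCGC in their windows. A match is a description of letters and not of a bound site.

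METTL3 knockdown in senescent cells moved repair genes in both directions. Against shControl, 5 members were higher (12.3% of all genes tested were) and 5 lower (11.2% of all genes tested), shares close to those of all genes. The median member stood at 0.04, and at -0.20 without shMETTL3 replicate 2 and -0.02 or -0.04 without senescent shControl replicate 1 or 2. The shMETTL3 libraries differed more from each other than those of the other groups, with a chi-square per gene of 8.0 against 1.74 in control, 1.78 with shControl and 3.64 with shMETTL14. The higher genes were ATM, RAD51B, WRN, ATRX and XRCC4. The lower genes were BARD1, EXO1, XRCC6, PRKDC and PARP1, so that 3 of the 7 end joining members were lower and 1, XRCC4, was higher.

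ATM, with the counts given above, rose by 0.56 ± 0.16 (edgeR adjusted p = 0.0105), and RAD51B rose by 0.83 ± 0.14 (edgeR adjusted p = 6.57e-05), while against control cells it stood at 0.27 without passing the test. ATRX had 642 and 687, 483 and 479, 777 and 933, and 280 and 381 counts (control, shControl, shMETTL3, shMETTL14). WRN had 126 and 151, 100 and 81, 149 and 173, and 121 and 98 counts. Both shMETTL3 libraries were above both shControl libraries for each of these genes, and the rises were 0.61 ± 0.15 for ATRX (edgeR adjusted p = 0.00331) and 0.61 ± 0.18 for WRN (edgeR adjusted p = 0.0158). XRCC4, the scaffold of LIG4, had 62 and 94, 45 and 51, 88 and 127, and 107 and 83 counts, a rise of 0.94 ± 0.23 (edgeR adjusted p = 0.00369).

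XRCC6 (hg19 chr22:42017167-42060052, plus strand), the smaller subunit of the Ku heterodimer that caps broken ends, had 233 and 229, 214 and 190, 95 and 114, and 296 and 182 counts (control, shControl, shMETTL3, shMETTL14). The shMETTL3 libraries were the lowest of the 8, and the fall against shControl was 1.17 ± 0.19 on the log2 scale, a level 2.25-fold lower (edgeR adjusted p = 3.63e-05). The other Ku subunit gene, XRCC5, did not pass the test at -0.12 ± 0.13. PRKDC, the kinase that binds Ku, had 819 and 790, 656 and 758, 528 and 593, and 548 and 537 counts and fell by 0.55 ± 0.13 (edgeR adjusted p = 0.00284), although it was at 0.06 with library size alone, where the median of all genes was 0.58. PARP1, which senses strand breaks, had 147 and 136, 75 and 90, 43 and 53, and 50 and 49 counts, a mean normalized count of 47.2 with shMETTL3 against 94.4 with shControl (edgeR adjusted p = 0.001). BARD1 was at -2.69 ± 0.69 (edgeR adjusted p = 0.00553). EXO1 had no count in either library, against 1 and 7 with shControl, and was at least 1.51-fold lower at a floor of 3 counts per library.

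Without senescent shControl replicate 2, ATM (0.47), ATRX (0.55), WRN (0.41), BARD1 (-2.21), PRKDC (-0.50) and EXO1 lost their calls, and fewer of all genes were called as well. Without shMETTL3 replicate 2, ATM (0.35), WRN (0.54), XRCC4 (0.69), BARD1 (-1.69) and EXO1 lost theirs, again with fewer of all genes called. XRCC4 was at 0.89 (adjusted p = 0.0522) without senescent shControl replicate 1, BARD1 kept its call without shMETTL3 replicate 1, when the remaining library had 0 counts and no fold can be given, and EXO1 also lost its call without either control library or shMETTL3 replicate 1. With library size alone the median of all genes was 0.58 in place of -0.03, with 15 members higher and 3 lower, where 41.2% of all genes tested were higher and 2.75% lower. Proliferation markers moved further in the same libraries, 9 of 24 being lower than with shControl. Their part in the falls was not tested.

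METTL14 knockdown gave mostly falls. Against shControl, 1 member was higher (9.15% of all genes tested were) and 10 were lower (12% of all genes tested), and the median member was at -0.35 while that of all genes was at 0.00. The member that rose was XRCC4, by 0.82 ± 0.23 (edgeR adjusted p = 0.0125). The lower genes were ATM, RAD50, TP53BP1, BARD1, BRIP1, EXO1, ATRX, LIG4, PRKDC and PARP1, which spread over 5 of the 7 roles. Of the Fanconi genes, FANCC stood at -0.54 (edgeR adjusted p = 0.0940) and FANCL at -0.75 (edgeR adjusted p = 0.0810), short of the threshold. The knockdown and senescence comparisons share the shControl libraries, and their values are given side by side only.

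RAD50 (hg19 chr5:131892616-131980313, plus strand), the coiled-coil ATPase that tethers broken ends, had 185 and 166, 139 and 143, 163 and 179, and 63 and 71 counts (control, shControl, shMETTL3, shMETTL14). The shMETTL14 libraries were below all 6 others, a fall of 1.23 ± 0.18 or a level 2.35-fold lower (edgeR adjusted p = 1.23e-05), and this was the only METTL14 call that every alternative kept. TP53BP1, which shields ends from resection, had 337 and 354, 265 and 245, 351 and 396, and 201 and 216 counts and changed by -0.45 ± 0.14 (edgeR adjusted p = 0.0250). ATM changed by -0.75 ± 0.17 (edgeR adjusted p = 0.00162) and ATRX by -0.70 ± 0.15 (edgeR adjusted p = 0.00149), with the shMETTL14 libraries below the shControl libraries for both.

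Among repair effectors, BRIP1 changed by -1.21 ± 0.38 (edgeR adjusted p = 0.0231) and BARD1 by -2.17 ± 0.65 (edgeR adjusted p = 0.0170). LIG4 was at -1.06 ± 0.33 (edgeR adjusted p = 0.0218), its shMETTL14 libraries below both shControl libraries. PRKDC changed by -0.54 ± 0.13 (edgeR adjusted p = 0.00371) and PARP1 by -0.89 ± 0.21 (edgeR adjusted p = 0.00291). EXO1 again had no count and was at least 1.46-fold lower. XRCC6 was at 0.07 ± 0.17 and its 2 libraries, at 296 and 182 counts, were far apart.

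Without shMETTL14 replicate 1, XRCC4 (0.65), ATM (-0.52), ATRX (-0.48), TP53BP1 (-0.38), BRIP1 (-1.02), LIG4 (-0.70), BARD1 (-1.97) and EXO1 lost their calls, and fewer of all genes were called as well. Without senescent shControl replicate 2, TP53BP1 (-0.55), BARD1 (-1.69), LIG4 (-1.20), PRKDC (-0.48), PARP1 (-0.81), XRCC4 (0.86) and EXO1 lost their calls, again with fewer of all genes called. Senescent shControl replicate 1 carried the calls of BRIP1 (-0.98 without it), LIG4 (-0.91), TP53BP1 (-0.35) and XRCC4 (0.77). BARD1 was at -2.42 without shMETTL14 replicate 2 (adjusted p = 0.0591), and EXO1 lost its call also without that library or either control library. With library size alone the median of all genes was 0.35 in place of 0.00, with 1 member higher and 3 lower, where 24.6% of all genes tested were higher and 5.52% lower. DESeq2 gave 0 members higher and 6 lower, where 4.42% of all genes tested were higher and 7.4% lower. In the same libraries 9 of 24 proliferation genes and 8 of 10 fibroblast markers were lower than with shControl, and their part in these changes was not tested.

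**Figure D4:**
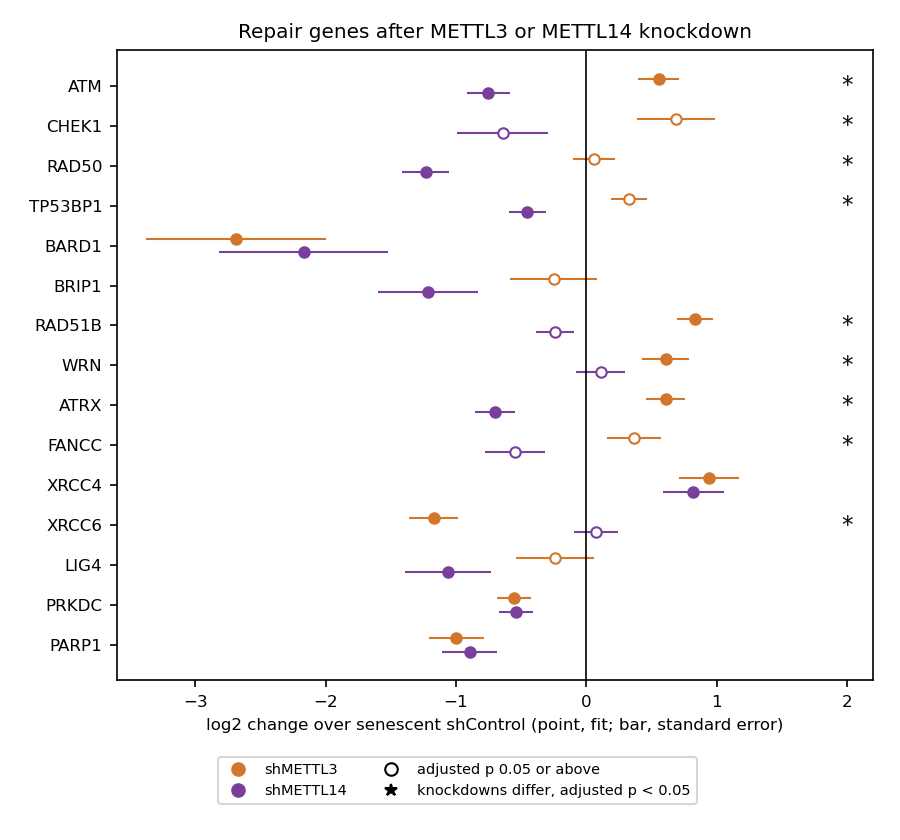
Log2 change over senescent shControl after METTL3 (orange) or METTL14 (purple) knockdown for the members called in either knockdown or in their direct comparison, except EXO1, which had no count in either. Points are fitted values, bars standard errors, open points did not pass the test, and stars mark members that differed between the knockdowns. ATM, ATRX and TP53BP1 lie on opposite sides of 0, while BARD1, XRCC4, PRKDC and PARP1 lie on the same side.

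The direct comparison of the knockdowns does not use the level of the shControl libraries. With shMETTL14 relative to shMETTL3, 1 member was higher (2.78% of those tested), where 16.5% of all genes tested were higher, and 8 members were lower (22.2%), close to the 18.7% of all genes tested that were lower. ATM was 2.48-fold lower (log2 -1.31 ± 0.16, edgeR adjusted p = 5.64e-07), ATRX 2.47-fold lower (-1.31 ± 0.15, edgeR adjusted p = 1.90e-07), RAD50 2.45-fold lower (-1.29 ± 0.18, edgeR adjusted p = 2.56e-06) and RAD51B 2.10-fold lower (-1.07 ± 0.14, edgeR adjusted p = 1.13e-06). XRCC6 was 2.37-fold higher (1.24 ± 0.18, edgeR adjusted p = 6.81e-06). These 5 calls held in every alternative tried. In the same comparison 6 of 10 fibroblast markers were lower and 1 higher (median -0.93), and 3 of 24 proliferation genes were lower and 1 higher (median 0.07). Their part in the differences was not tested.

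A further 4 members were lower with shMETTL14 than with shMETTL3. CHEK1, the kinase downstream of ATR, had 38 and 57, 24 and 32, 48 and 57, and 16 and 24 counts. It passed the test against shControl after neither knockdown, at 0.69 ± 0.30 and -0.64 ± 0.35, while the difference between them was -1.33 ± 0.32 (edgeR adjusted p = 0.00188), or -1.05 (adjusted p = 0.0596) without shMETTL14 replicate 1. TP53BP1 differed by -0.78 ± 0.14 (edgeR adjusted p = 8.74e-05), FANCC by -0.91 ± 0.22 (edgeR adjusted p = 0.00179) and WRN by -0.50 ± 0.18 (edgeR adjusted p = 0.0299). The WRN difference lost its call at -0.64 and -0.38 without shMETTL14 replicate 1 or 2 and at -0.43 without shMETTL3 replicate 2. For the genes that fell after both knockdowns the difference was 0.01 (95% interval -0.26 to 0.28) for PRKDC, 0.10 (-0.37 to 0.57) for PARP1 and 0.52 (-1.39 to 2.42) for BARD1, and for XRCC4 it was -0.12 (-0.55 to 0.31). Without shMETTL3 replicate 1 the median difference was -0.32 over the members tested and 0.05 over all genes, against -0.31 and 0.01 with all libraries.

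**Figure D5:**
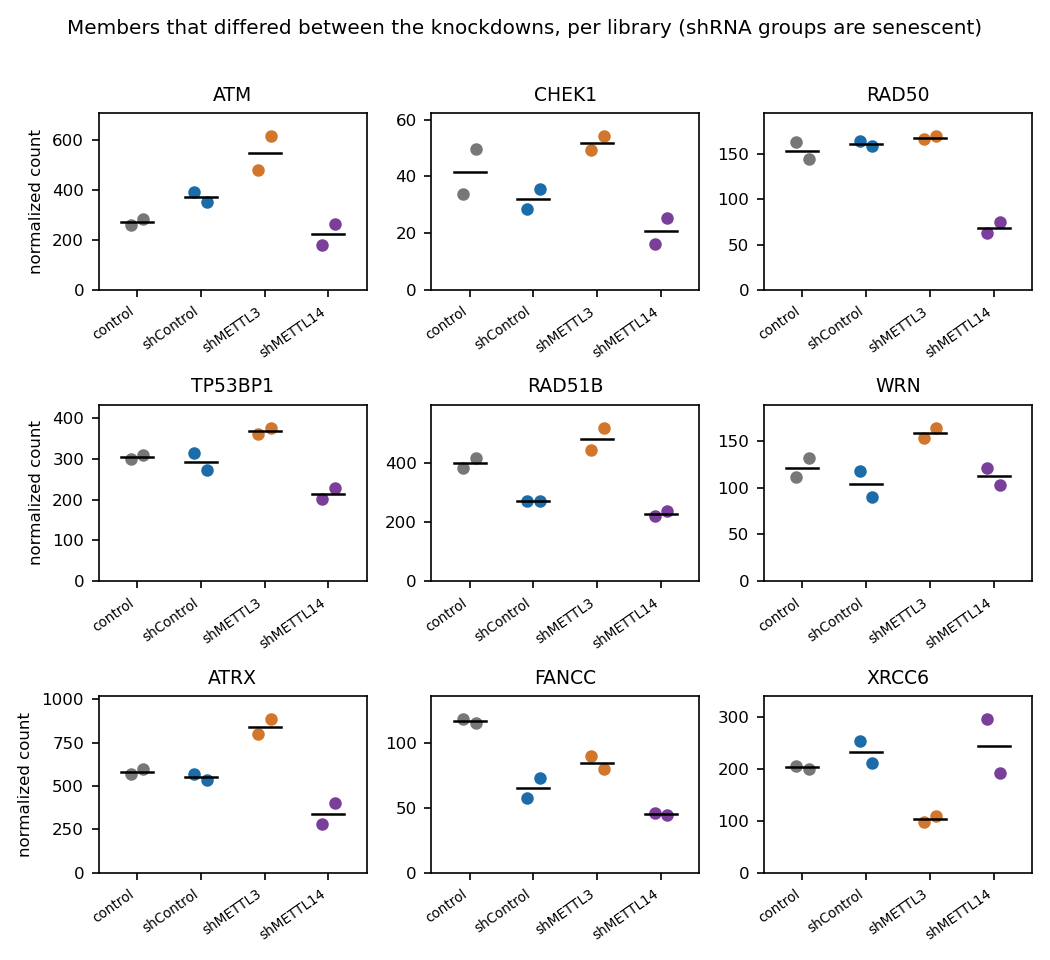
Normalized counts per library (points) and group means (lines, 2 libraries) for the 9 members that differed between METTL14 and METTL3 knockdown, with axes from 0. The shMETTL3 and shMETTL14 points do not overlap in any panel, and XRCC6 is the panel in which the shMETTL3 points are the lower ones.

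Set against control cells, whose libraries are also those of the senescence comparison, shMETTL3 cells had 5 members higher (20.1% of all genes tested) and 15 lower (20.1%), and shMETTL14 cells had 2 higher (19.7%) and 20 lower (20.5%). Median log2 changes were -0.42 and -0.74 for the members. Proliferation genes were lower in 23 of 24 cases with shMETTL3 and 20 of 24 with shMETTL14, and fibroblast markers in 7 and 8 of 10, and their part in the members' falls was not tested. ATR and NBN were higher in each of these comparisons, at 0.62 ± 0.16 and 1.01 ± 0.19 with shMETTL3 and at 0.41 ± 0.16 and 0.55 ± 0.20 with shMETTL14. ATM was 2.01-fold higher than in control cells with shMETTL3 and was at -0.30 ± 0.17 with shMETTL14. POLQ was 14.1-fold and 17.9-fold below control, and BARD1 was at log2 changes of -4.22 ± 0.57 and -3.70 ± 0.53. With shMETTL3 it was at -3.21 without shMETTL3 replicate 2, and without replicate 1 the remaining library had 0 BARD1 counts and gives no fold. EXO1 was at least 4.59-fold and 4.42-fold lower than in control cells, and XRCC2, which was not tested, at least 4.01-fold and 3.86-fold lower. MSH6, the mismatch sensor, with 113 and 103 counts in control, 49 and 76 with shMETTL3 and 75 and 47 with shMETTL14, was called lower in both (-0.62 ± 0.22 and -0.60 ± 0.22). Those MSH6 calls were lost without control replicate 1 (-0.55 and -0.52) or 2 (-0.71 and -0.68), without shMETTL3 replicate 1 (-0.40) and without shMETTL14 replicate 2 (-0.33). ATR lost its call with shMETTL3 without control replicate 1 (0.48), and with shMETTL14 without that library (0.28), either shControl library (0.42) or shMETTL14 replicate 1 (0.43) or 2 (0.41). NBN lost its call with shMETTL14 without control replicate 1 (0.53) or 2 (0.59) or shMETTL14 replicate 2 (0.46). Without control replicate 1 the members' median was -0.47 with shMETTL3 and -0.70 with shMETTL14, while that of all genes was -0.03 and 0.01. With shMETTL14 it was -0.55 over members without shMETTL14 replicate 1 and -0.84 without replicate 2, and -0.01 over all genes in each case.

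Levels between genes are compared per kilobase of gene. In control cells XRCC6 had 4.73 normalized counts per kb, XRCC5 4.49, MSH6 3.97 and PRKDC 3.78, the highest of the set, and BLM, XRCC4 and EXO1 had 0.161, 0.247 and 0.326, the lowest apart from MDC1, which was not ranked. The subunits of Ku and the kinase that binds it were thus among the most densely transcribed members.

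Gene length went with the response to METTL3 knockdown. All 5 higher members were longer than 100 kb (ATM 146 kb, RAD51B 863 kb, WRN 143 kb, ATRX 281 kb, XRCC4 276 kb), and of the lower members PRKDC (187 kb) was, but not BARD1, EXO1, XRCC6 or PARP1. Over the 11 tested members of at least 100 kb the median log2 change was 0.37, and over the 25 shorter ones it was -0.08. Across the 11505 protein-coding genes tested the same medians were 0.28 and -0.14. Rank correlation with length was 0.33 over the 36 members and 0.34 over these genes, across genes that share the same libraries. In the direct comparison of shMETTL14 with shMETTL3 the medians were -0.78 and -0.23 over members and -0.39 and 0.14 over protein-coding genes. After METTL14 knockdown alone they were -0.54 and -0.34, and -0.08 and 0.01. The part of length in the members' changes was not tested.

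Several members share DNA with a neighbor, and the table does not separate strands. For 52 of 52 genes of at least 100 counts on average that are nested in an oppositely oriented gene, the enclosing gene's count was equal or larger in each library. C11orf65 overlaps 41.4% of ATM on the opposite strand and had 136 and 138, 108 and 137, 161 and 224, and 62 and 94 counts, highest with shMETTL3 and lowest with shMETTL14 as for ATM. Its change after METTL14 knockdown was -0.81 (edgeR adjusted p = 0.00606), and reads of the shared stretch cannot be told apart. FANCD2OS overlaps 27.3% of FANCD2 and had 0 to 14 counts, TH2LCRR overlaps 7.50% of RAD50 and had 9 to 32, ACRV1 overlaps 7.67% of CHEK1 and had 0 to 8, and MDC1-AS1 overlaps 56.6% of MDC1 and had 0 to 5.

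For 14 members a gene transcribed the other way starts within 1 kb, and these neighbors gave a comparison from the same stretch of DNA. In senescence, over the 13 pairs with both genes tested, 4 members (ATM, BLM, FANCD2, LIG4) and 3 neighbors (TMEM167A, DESI1, PURG) were called, and pairs this few say nothing of whether calls coincide. BLM was at -1.76 and CRTC3-AS1, starting 187 bases away, at -0.47 (edgeR adjusted p = 0.278), FANCD2 at -2.42 and CIDECP at -0.50 (edgeR adjusted p = 0.585). ATM was at 0.45 and NPAT at 0.21, and LIG4 at 0.96 and ABHD13 at 0.55. After METTL3 knockdown XRCC6 fell by 1.17 while DESI1, 106 bases away, was at -0.25 (edgeR adjusted p = 0.457), and PRKDC and the replication helicase gene MCM4, 20 bases apart, were both called lower, at -0.55 and -1.79. XRCC4 rose after both knockdowns, at 0.94 and 0.82, while TMEM167A, whose start overlaps its own, was at 0.10 and 0.02. After METTL14 knockdown ATM was at -0.75 and NPAT at -0.12 (edgeR adjusted p = 0.752). In the direct comparison of shMETTL14 with shMETTL3, 3 members of these 13 pairs were called and 4 neighbors. XRCC6 and DESI1 were both higher with shMETTL14, at 1.24 and 0.83 (edgeR adjusted p = 0.003 for DESI1), WRN and PURG both lower, at -0.50 and -1.70, and ATM was called at -1.31 while NPAT was at -0.49 (edgeR adjusted p = 0.0787). The differences between member and neighbor were not tested.

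A list of 102 further repair and checkpoint genes, of which 100 were in the table and 93 were tested, gave 2 higher and 12 lower in senescence (2.15% and 12.9%, where 13.3% of all genes were called in each direction). It gave 4 higher and 5 lower after METTL3 knockdown (4.30% and 5.38%, against 12.3% and 11.2% of all genes) and 3 higher and 7 lower after METTL14 knockdown (3.23% and 7.53%, against 9.15% and 12%). None of these 6 shares was above that of all genes. Against control cells, 9 were higher and 21 lower with shMETTL3 (9.68% and 22.6%, against 20.1% of all genes in each direction), and 3 were higher and 26 lower with shMETTL14 (3.23% and 28.0%, against 19.7% and 20.5%). The largest called changes among well-counted genes in senescence were ERCC1 (1.48 ± 0.20, edgeR adjusted p = 1.67e-06), a nuclease subunit of nucleotide excision repair, MGMT (-0.81 ± 0.19), which removes alkyl groups from guanine, and DDB2 (-0.76 ± 0.23), the sensor of ultraviolet damage. After METTL3 knockdown they were WEE1 (1.72 ± 0.28, edgeR adjusted p = 4.17e-05), the kinase that holds cells before mitosis, DDB2 (0.77 ± 0.23) and ERCC1 (-0.75 ± 0.19). After METTL14 knockdown they were HLTF (-1.73 ± 0.25, edgeR adjusted p = 9.52e-06), a fork remodeler, MGMT (-1.25 ± 0.23) and ERCC8 (0.97 ± 0.25), of transcription-coupled repair. By list, 5 of 12 other checkpoint genes, 2 of 8 other Fanconi genes, 2 of 17 other homologous recombination genes, 1 of 9 other end joining genes and 2 of 24 base and nucleotide excision repair genes were lower in senescence. After METTL3 knockdown 2 checkpoint genes, 1 excision repair gene and 1 other break response gene were higher, and 1 gene each of these lists and of the other Fanconi and helicase lists was lower. After METTL14 knockdown 3 excision repair genes, 2 helicase genes, 1 checkpoint gene and 1 mismatch repair gene were lower, and 1 excision repair, 1 Fanconi and 1 break response gene were higher.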

How the data were processed

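The authors deposited a table of raw counts, 1 column per library and without normalization. Alignment was to hg19 with STAR, HOMER summed the reads over each gene body with 1 transcript kept per gene, and the submitters' notes also list deepTools 3.3. The authors' table gives the length of each gene in bases, used here for levels per kb. The library kit is directional and the file header names a strand setting, but the counts did not separate strands. All rows carry a gene name, and 6423 of 27945 genes had no count.

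All 8 libraries were fitted together with edgeR 4.0.16 in R 4.3.3 (TMM scaling, filterByExpr with a minimum count of 10, quasi-likelihood test with 4 group means). Benjamini-Hochberg adjustment ran over the 12844 genes tested, with a threshold of 0.05, and SE is the size of the log2 change over the square root of F. Normalized counts are raw counts over the effective library size relative to its mean. A fold against a group with at most 3 counts in each library is a lower bound at a floor of 3 counts per library. The median over members was the same with such a gene at its bound. The floor covers counting error only, and 95% intervals of a log2 change come from the edgeR fit. Replicates of a group differed by more than sampling noise, so no library was counted as a repeat of another.

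On simulated data for METTL3 knockdown against shControl (12333 genes, 200 of them changed by 1 on the log2 scale), edgeR recovered 139 with their sign and also called 7 unchanged genes, while DESeq2 1.42.0 recovered 92 and called 0 unchanged genes. Every gene was drawn at 1 common spread (10.6%), and low-count genes were left unchanged. The real shMETTL3 libraries varied more than those of other groups (chi-square per gene 8.0), so these rates do not carry over to them.

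The members, their roles, the other lists and the motif were chosen with earlier results of these data known. All 38 members are named, those called in the senescence or knockdown comparisons with their count in each library. Of other repair genes, the 3 called genes with the largest change and a mean of at least 50 counts are named per comparison, and of genes outside the lists only those that overlap a member by at least 5% of it or start within 1 kb of it on the opposite strand. Alternatives were DESeq2, library size alone, upper quartile scaling, no filter, at least 10 counts in every library, ribosomal rows removed, fits of the 2 groups alone, replicate number as a block, an adjusted p below 0.01, a log2 change of at least 1, and each library left out in turn. Promoters came from RefSeq on GRCh38.p14 and were never mixed with hg19 coordinates. Plots were drawn with matplotlib 3.10.9. Other assays of the study were not analysed here.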

Additional observations from a re-analysis of the deposited data

Results flagged for a closer look

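With METTL14 and METTL3 knockdown compared directly by edgeR, 9 members had effects that differed between the knockdowns, 1 higher and 8 lower (2.78% and 22.2% of those tested, where 16.5% and 18.7% of all genes were). The log2 difference, METTL14 minus METTL3 knockdown, was -1.31 for ATM, -1.33 for CHEK1, -1.29 for RAD50, -0.78 for TP53BP1, -1.07 for RAD51B, -0.50 for WRN, -1.31 for ATRX, -0.91 for FANCC and 1.24 for XRCC6. The 22.2% of members lower was close to the 18.7% of all genes. In the same comparison 6 of 10 fibroblast markers were lower and 1 was higher. Protein-coding genes of at least 100 kb had a median log2 difference of -0.39, and shorter ones of 0.14. The part of the markers and of gene length was not tested. Each difference comes from 2 libraries and 1 hairpin per knockdown, and the part of the hairpin was not tested. Groups of 2 libraries are too small to look for a library that stands apart.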

How the results depend on the processing

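Of 88 member values called in any of the 6 comparisons, 86 kept direction and call with the replicate number as a block. BLM in senescence and EXO1 after METTL14 knockdown lost theirs with the block, which left 11 members lower in senescence and 9 lower after METTL14 knockdown. Replicate differences correlated at -0.06 to 0.26 between groups, and the numbers were not taken to pair the samples. Counts of members called moved as follows, with the share of all genes tested beside them. They also moved with a library left out, where 1 group holds 1 library and no count is given here. In senescence, higher (4) became 1 with DESeq2, 0 with library size alone, 1 at an adjusted p below 0.01 and 0 with a log2 limit of 1. The higher share of all genes, 13.3%, became 9.58%, 5.85%, 9.49% and 6.89%. Lower (12) became 25 with library size and 6 with at least 10 counts in every library. The lower share of all genes, 13.3%, became 39.0% and 14.6%. After METTL3 knockdown, higher (5) became 15 with library size, 3 at 0.01, 0 with the log2 limit and 2 to 5, and lower (5) became 3 with library size, with 10 counts in every library, with the 2 groups alone and with the log2 limit, and 2 to 6. After METTL14 knockdown, higher (1) became 0 with DESeq2, at 0.01 and with the log2 limit and 0 to 1, and lower (10) became 6 with DESeq2, 3 with library size, 5 at 0.01, 5 with the log2 limit and 3 to 13. Against control, METTL3 knockdown had 2 higher with the log2 limit, 2 to 7 with a library left out and 9 lower with 10 counts in every library. METTL14 knockdown had 0 higher with DESeq2, library size, 0.01 and the log2 limit. It had 1 with upper quartile and with 10 counts in every library. The higher share of all genes, 19.7%, became 13.8%, 14.2%, 13.9%, 10.5%, 18.8% and 20.2%. Between the knockdowns, lower (8) became 13 with library size and 5 with the log2 limit, where 18.7% of all genes became 27.1% and 8.54%. ATM in senescence (-0.051) and PRKDC after METTL3 knockdown (0.065) reversed with library size alone, where the medians of all genes were -0.53 and 0.58. Fewer genes entered under 10 counts in every library, and for the other moves the cause was not tested. Genes with under 20 counts per library, among them BLM, EXO1, XRCC2 and PMS2, could show only large changes at this depth.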
